A study of Mus musculus with 4 samples.

Results

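Genes of Fc receptors and inhibitory myeloid receptors, Fcgr1, Fcgr2b, Fcgr3, Fcgr4, Fcer1g, Lilrb4a, Lilr4b, Cd33 and Tyrobp, were followed across 4 Affymetrix arrays of mouse bone marrow LSK cells. They are 9 of the 19938 genes with a probe set of their own. The members were listed by name, and the list was selected on log2 levels of these same 4 arrays, so differences between arrays given for them are a description, with no test. LSK cells lack the markers of mature blood lineages and carry Sca-1 and Kit, and blood stem cells with their first progeny are among them. The Hdac3-null group, labelled Vav-Cre/Hdac3Flox/-, had 2 arrays of LSK/Flt3- cells, here null replicates 1 and 2. These mice carried 1 floxed and 1 deleted Hdac3 allele, and the Vav promoter drives Cre in blood cells from their earliest progenitors. Wild-type (WT) cells gave 1 array of the LSK/Flt3+ fraction, here WT Flt3+, and 1 of the LSK/Flt3- fraction, here WT Flt3-. Flt3 is a cytokine receptor gained as LSK cells leave the stem cell state. The background of every group was C57BL/6, and no ages are stated. Pools of 5 to 30 mice were sorted for an array. The labels do not say that the null pools came from different animals, so the gap between them may be technical.

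Fc gamma receptors bind the constant part of IgG and let myeloid cells respond to antibody-coated particles. Activating receptors signal through small partner chains that carry an ITAM, a tyrosine motif that recruits the kinase Syk. Inhibitory receptors carry an ITIM in their own tail, which recruits phosphatases that restrain the same pathway. In bone marrow, antibodies to the products of Fcgr3 and Fcgr2b are used to tell granulocyte-monocyte progenitors from other early progenitors. Mature macrophages, monocytes and neutrophils carry most of these receptors.

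All 9 genes had their highest level of the 4 arrays in WT Flt3+ cells, a position held by 19.7% of all 19938 genes. Against WT Flt3+ cells both null arrays were lower for 9 of 9 members, against a background of 25.1% of all genes, and higher for 0 (35% of all genes). Against WT Flt3- cells the members did not move as one. Both null arrays were higher for 3 members, Fcgr2b, Fcgr3 and Tyrobp (41.3% of all genes), both were lower for Fcgr1 (replicate 1 by -0.01) and Cd33 (19.9% of all genes), and for the other 4 the null arrays lay on either side of the wild-type array. Every statement on WT Flt3+ cells rests on 1 array. The comparison with WT Flt3+ cells joins a difference of genotype with one of sorted fraction, and the null pair is shared by both comparisons. The WT Flt3- array likewise enters 2 of the differences given. Fewer cells of a type and less RNA per cell cannot be told apart in these sorted pools.

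**Figure D1:**
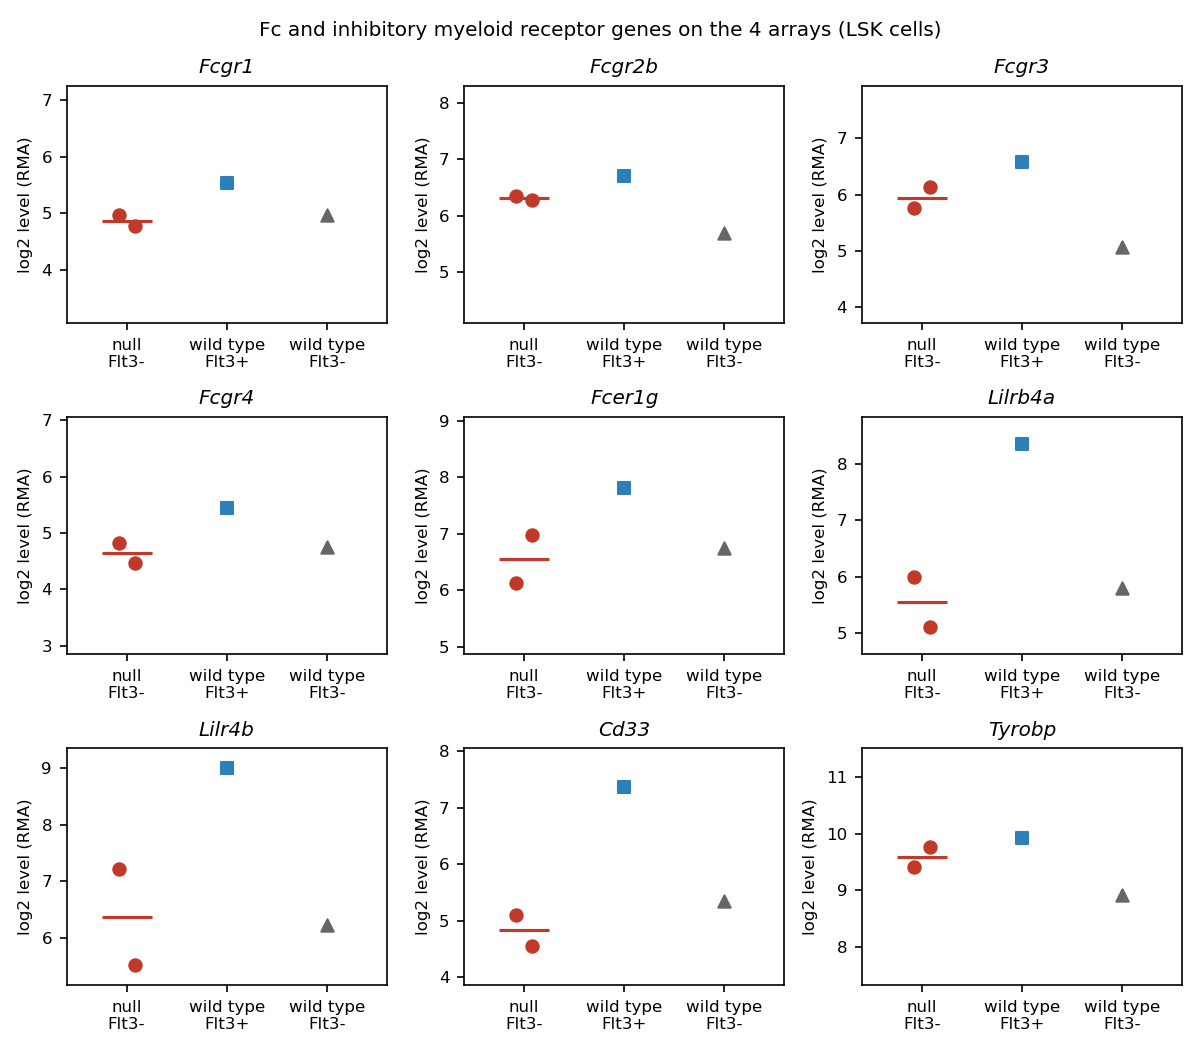
Log2 level of each member gene (vertical axis, RMA units, the same span in every panel) on the arrays of null LSK/Flt3- (red circles, line at their mean), WT Flt3+ (blue square) and WT Flt3- cells (grey triangle). The WT Flt3+ array is the highest in all 9 panels, by the widest gap for Lilrb4a, Lilr4b and Cd33, and in the panels of Fcgr2b, Fcgr3 and Tyrobp the null circles lie between the wild-type arrays.

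Array medians over all probe sets ran between 5.30 and 5.60, and null replicate 1 was the highest. The median difference over all genes was 0.09 for null minus WT Flt3-, 0.05 for null minus WT Flt3+ and 0.04 for WT Flt3+ minus WT Flt3- on the log2 scale. Hdac3, the targeted gene, stood at 5.71 and 5.04 on the null arrays, against 6.33 in WT Flt3+ and 6.18 in WT Flt3- cells. No source places its probes inside or outside the deleted part, so these levels do not check the labels. Xist, an X-linked RNA named after its values were seen, stood at 10.84 and 9.67 on the null arrays, against 3.90 in WT Flt3+ and 4.23 in WT Flt3- cells. The labels used here give no sex, both null comparisons carry this difference in Xist, and its part in the members' levels was not tested. Of the gate genes, Kit stood at 10.77 and 10.36 on the null arrays, against 10.11 in WT Flt3+ and 10.25 in WT Flt3- cells. Flt3 stood at 7.84 and 7.02 on the null arrays, against 10.07 in WT Flt3+ and 9.18 in WT Flt3- cells, and the gene of Sca-1 was not analysed here. Whether a probe set stood above background is not given either, and levels of different genes are not compared below.

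PU.1 is a myeloid ETS factor that binds purine-rich sites in promoters of Fc receptor genes. RefSeq windows (GRCm38.p6) of the 250 bases before the start were found for 7 members, not for Lilrb4a or Tyrobp. The letters GAGGAA, the core of a PU.1 site, were searched on both strands and were in 4 of the 7, those of Fcgr1, Fcgr3, Fcgr4 and Cd33, and in 23.3% of all 32851 windows. These 4 are printed 5′ to 3′ on the gene's strand because they hold the match, shown in capitals (TTCCTC is GAGGAA on the other strand). The Fcgr1 window is chr3:96293970-96294219 on the minus strand, that of Fcgr3 is chr1:171059404-171059653 on the minus strand, that of Fcgr4 is chr1:171018676-171018925 on the plus strand and that of Cd33 is chr7:43533172-43533421 on the minus strand.
Fcgr1: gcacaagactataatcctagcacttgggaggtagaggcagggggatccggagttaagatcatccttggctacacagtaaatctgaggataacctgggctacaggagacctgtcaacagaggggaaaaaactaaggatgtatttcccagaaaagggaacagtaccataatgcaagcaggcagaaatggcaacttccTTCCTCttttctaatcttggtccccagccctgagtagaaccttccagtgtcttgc
Fcgr3: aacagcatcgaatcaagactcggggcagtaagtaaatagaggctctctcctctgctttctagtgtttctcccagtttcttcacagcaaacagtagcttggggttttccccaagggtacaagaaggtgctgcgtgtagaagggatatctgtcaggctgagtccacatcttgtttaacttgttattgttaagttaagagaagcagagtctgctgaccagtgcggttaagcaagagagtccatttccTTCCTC
Fcgr4: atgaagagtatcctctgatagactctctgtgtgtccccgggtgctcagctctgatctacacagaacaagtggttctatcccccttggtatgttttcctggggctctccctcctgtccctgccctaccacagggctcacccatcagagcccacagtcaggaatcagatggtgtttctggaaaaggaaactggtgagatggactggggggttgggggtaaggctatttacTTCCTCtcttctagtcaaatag
Cd33: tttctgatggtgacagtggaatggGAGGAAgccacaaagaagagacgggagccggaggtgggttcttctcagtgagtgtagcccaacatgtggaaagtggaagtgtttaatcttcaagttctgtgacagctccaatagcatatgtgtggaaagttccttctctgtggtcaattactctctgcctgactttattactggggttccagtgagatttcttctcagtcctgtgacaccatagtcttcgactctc
The match ended 50 bases before the start in Fcgr1, 17 in Fcgr4, 1 in Fcgr3 and 221 in Cd33. Fcgr3 has 2 windows that overlap, and the one printed was used. The genes that hold it did not share a profile: Fcgr3 was higher on both null arrays than in WT Flt3- cells and Cd33 lower. The C/EBP letters TTGCNNAA were in Fcgr3 alone (9.56% of all windows). The letters TGNGGT, a loose RUNX pattern that takes any base at N, were in 5 of the 7 (40.1%). In Fcgr3 a match to them overlapped the C/EBP match by 1 base. In Fcgr2b and Lilr4b the only match to this RUNX pattern was TGGGGT, read on the other strand as ACCCCA in Lilr4b. A narrower pattern was not counted. The letters TTCNNNGAA, searched as a GAS pattern, were in 2 of the 7, Fcgr1 and Lilr4b (7.02% of all windows). A match is a description of letters, not a site in use.

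Fcgr1 encodes the high-affinity receptor for IgG. Its log2 level was 4.97 and 4.77 on null replicates 1 and 2, against 5.54 in WT Flt3+ and 4.97 in WT Flt3- cells. The null arrays were below WT Flt3+ cells by a mean log2 difference of -0.67 ± 0.31 (SE of the fit), and stood at -0.11 ± 0.31 from WT Flt3- cells, less than 1 SE. Fcgr4, which encodes an activating receptor of monocytes and neutrophils, had levels of 4.83 and 4.47 on the null arrays, against 5.44 in WT Flt3+ and 4.75 in WT Flt3- cells. Its profile over the 4 arrays was the closest to that of Fcgr1 among the members, at a Euclidean distance of 0.16 between levels centred on each gene's mean. For both genes the order was WT Flt3+ above WT Flt3- and null cells, and the last 2 did not differ beyond 1 SE.

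Fcgr3 encodes the low-affinity activating receptor, and its profile set it apart from both. It stood at 5.75 and 6.14 on null replicates 1 and 2, against 6.57 in WT Flt3+ and 5.08 in WT Flt3- cells. The null arrays lay between the wild-type arrays and overlapped with neither. Null minus WT Flt3- was 0.87 ± 0.35 (SE), a 1.82-fold higher level. Null minus WT Flt3+ was -0.62 ± 0.35 (SE).

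Fcgr2b encodes the inhibitory IgG receptor, with an ITIM in its tail, and is the one Fc gamma receptor of B cells. Its levels were 6.34 and 6.28 on null replicates 1 and 2, the closest null pair among the 9 members, against 6.70 in WT Flt3+ and 5.70 in WT Flt3- cells. As for Fcgr3, the null arrays lay between the WT ones. The difference was 0.62 ± 0.34 (SE) from WT Flt3- and -0.39 ± 0.34 (SE) from WT Flt3+ cells. The ectodomains encoded by Fcgr2b, Fcgr3 and Fcgr4 are alike in sequence, and how far their probe sets cross-hybridize was not tested.

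Fcer1g and Tyrobp encode the ITAM partner chains. The product of Fcer1g, the common Fc receptor gamma chain, is needed for the mouse receptors encoded by Fcgr1, Fcgr3 and Fcgr4 to reach the cell surface. Fcer1g levels were 6.14 and 6.99 on null replicates 1 and 2, against 7.81 in WT Flt3+ and 6.76 in WT Flt3- cells. The null arrays were on either side of WT Flt3- cells, with a mean difference of -0.19 ± 0.42 (SE), and both were below WT Flt3+ cells, at -1.24 ± 0.42 (SE). The null gap of 0.85 was reached by 5.2% of all genes. Tyrobp encodes DAP12, the partner of TREM and many lectin receptors. It stood at 9.41 and 9.76 on null replicates 1 and 2, against 9.92 in WT Flt3+ and 8.92 in WT Flt3- cells. Its null arrays were above WT Flt3- cells by 0.67 ± 0.35 (SE), a 1.59-fold higher level, and at -0.34 ± 0.35 (SE) from WT Flt3+ cells, less than 1 SE. On average the null arrays lay nearer to the WT Flt3- array for Fcer1g and to the WT Flt3+ array for Tyrobp. For Tyrobp this rests on null replicate 2, at 0.85 from WT Flt3- and -0.16 from WT Flt3+ cells. Replicate 1 stood at 0.49 and -0.51 from them. The nearest member profile to Tyrobp was that of Fcgr2b (distance 0.30), and Fcer1g stood at a distance of 0.89 from its nearest, Fcgr1.

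The remaining members had the widest ranges. Lilrb4a encodes gp49B, an inhibitory receptor of mast cells, macrophages and neutrophils with ITIMs in its tail. Its levels were 5.99 and 5.10 on null replicates 1 and 2, against 8.35 in WT Flt3+ and 5.79 in WT Flt3- cells. The null arrays lay on either side of WT Flt3- cells (-0.24 ± 0.42, SE) and well below WT Flt3+ cells (-2.80 ± 0.42, SE), a level 6.98-fold higher in WT Flt3+ cells. Lilr4b encodes gp49A, a close relative that lacks the inhibitory tail. It stood at 7.21 and 5.51 on null replicates 1 and 2, against 9.01 in WT Flt3+ and 6.22 in WT Flt3- cells. The mean difference from WT Flt3- cells was 0.14 ± 0.58 (SE), with single values of 0.98 and -0.71, so its sign was set by the replicate. Only 0.271% of all genes had a null gap as wide as its 1.70. From WT Flt3+ cells the difference was -2.65 ± 0.58 (SE), with both replicates lower by at least 1.80. Each of these near-identical, adjacent genes had 1 probe set, annotated to it alone, and signal from one read as the other cannot be told apart here.

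Cd33 encodes a sialic acid-binding receptor of myeloid cells, which in humans carries ITIMs. Its levels were 5.10 and 4.56 on null replicates 1 and 2, against 7.36 in WT Flt3+ and 5.36 in WT Flt3- cells. Both null arrays were the lowest of the 4. The difference was -0.53 ± 0.35 (SE) from WT Flt3- and -2.53 ± 0.35 (SE) from WT Flt3+ cells. Its profile was nearest to that of Lilrb4a, at a distance of 0.46.

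**Figure D2:**
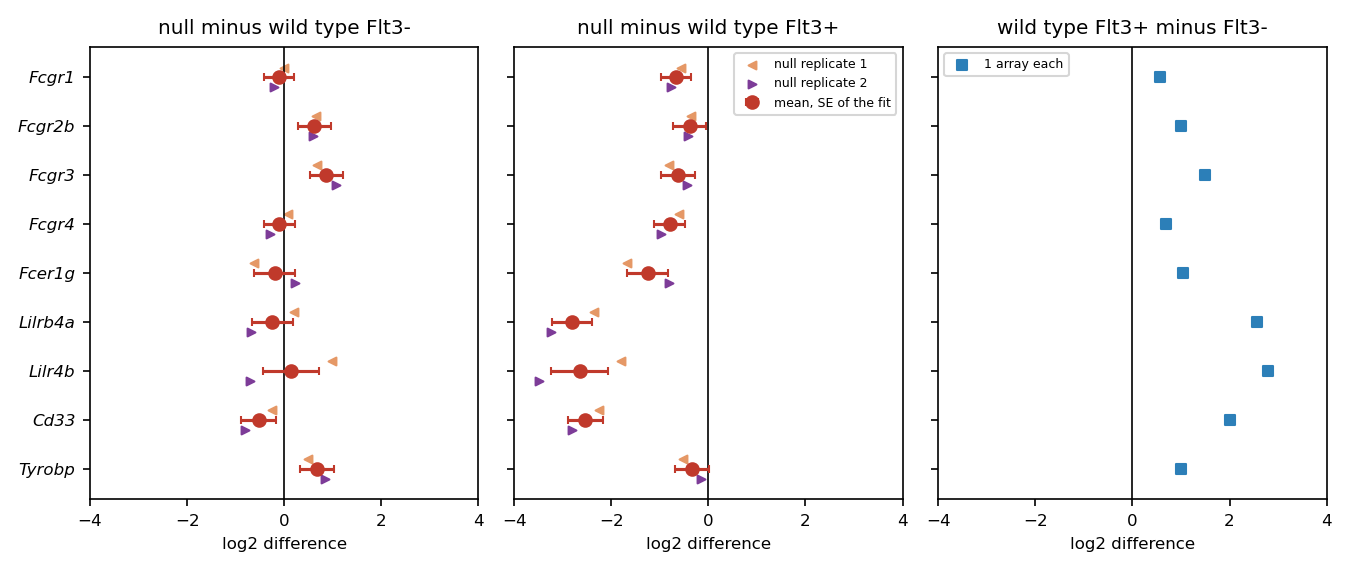
Log2 differences of the 9 members (rows) for null minus WT Flt3-, null minus WT Flt3+ and WT Flt3+ minus WT Flt3- cells; circles are null means with the SE of the fit, and triangles are the null replicates alone. All null values in the middle panel lie below 0, and those of Lilrb4a, Lilr4b and Cd33 lie at -1.80 or lower.

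At a limit of 2-fold on both null arrays, 3 of the 9 members, Lilrb4a, Lilr4b and Cd33, were lower than in WT Flt3+ cells, against 1.08% of all genes, and 0 were higher (0.261%). Fcer1g lay just outside, with -1.67 on null replicate 1 and -0.82 on null replicate 2. No member was 2-fold from WT Flt3- cells on both null arrays, where 0.251% of all genes were higher and 0.381% lower by that rule. Fcgr3 was closest, at 0.68 on null replicate 1 and 1.06 on null replicate 2. Between the wild-type arrays, which have no replicates and were not tested, 7 of the 9 members were at least 2-fold higher in WT Flt3+ than in WT Flt3- cells, against 0.923% of all genes, and 0 were 2-fold lower (0.176%). All 9 were higher there, as were 56.6% of all genes. The members' median was 1.05 on the log2 scale, beside 0.04 over all genes. Lilr4b was 6.89-fold, Lilrb4a 5.89-fold, Cd33 4.01-fold and Fcgr3 2.81-fold higher. Fcgr2b (2.00-fold) and Tyrobp (2.01-fold) lay just inside the 2-fold limit, and Fcgr4 (1.61-fold) and Fcgr1 (1.48-fold) lay outside. With equal array medians Fcgr2b and Tyrobp were below the limit and 5 members past it, and 6 were past it after quantile normalization or cyclic loess.

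Macrophage markers were also higher on the WT Flt3+ array. All 13 of 13 markers on the macrophage list were higher in WT Flt3+ than in WT Flt3- cells, beside 56.6% of all genes, with a median log2 difference of 1.15. Their summed log2 level was 63.1 and 60.5 on null replicates 1 and 2, against 80.5 in WT Flt3+ and 62.0 in WT Flt3- cells. The mannose receptor gene Mrc1 stood at 4.46 and 4.53 on the null arrays, against 8.62 in WT Flt3+ and 4.70 in WT Flt3- cells. The complement gene C1qc stood at 3.59 and 4.05 on the null arrays, against 8.18 in WT Flt3+ and 4.89 in WT Flt3- cells. Adgre1, which encodes the F4/80 antigen, had 4.52 and 4.13 on the null arrays, against 7.17 in WT Flt3+ and 4.21 in WT Flt3- cells. These 3 and the scavenger receptor gene Cd163 were lower in null than in WT Flt3+ cells by limma over all genes, with adjusted p from 0.000515 for Mrc1 and C1qc to 0.0432 for Cd163, where 0.281% of all genes were called lower. Cd68, another marker of the list, stood at 8.02 and 8.38 on the null arrays, against 8.54 in WT Flt3+ and 6.95 in WT Flt3- cells. Its null mean was 1.25 ± 0.37 (SE) above WT Flt3- cells, the largest such difference of the list, and at -0.34 from WT Flt3+ cells. Against WT Flt3- cells 7 of the 13 markers had a higher null mean, beside 65% of all genes. The RMA scale has no 0, so whether any marker was absent from an array cannot be read from it. The mature neutrophil list did not follow. Of its 10 markers, 4 were higher in WT Flt3+ than in WT Flt3- cells, beside 56.6% of all genes. Its summed log2 level was 52.8 and 54.4 on null replicates 1 and 2, against 49.3 in WT Flt3+ and 52.4 in WT Flt3- cells. Against WT Flt3+ cells 9 of the 10 had a higher null mean, beside 56.9% of all genes. The part of either list in the members' levels was not tested.

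Of the markers of granulocyte-monocyte progenitors, 8 of 9 were higher in null than in WT Flt3+ cells, beside 56.9% of all genes. The exception was Csf1r, the receptor gene of macrophage colony-stimulating factor, at 5.59 and 5.97 on the null arrays, against 8.11 in WT Flt3+ and 5.77 in WT Flt3- cells. It was lower in null than in WT Flt3+ cells by -2.34 ± 0.36 (SE; limma, adjusted p = 0.0250). Against WT Flt3- cells 9 of 9 had a higher null mean, beside 65% of all genes, with a median log2 difference of 1.69, and for Csf1r that mean was 0.01, with the null arrays on either side at -0.18 and 0.21. The list's summed level was 77.4 and 81.2 on the null arrays, against 70.1 in WT Flt3+ and 64.4 in WT Flt3- cells. Ms4a3, a membrane protein gene of these progenitors, was 3.11 ± 0.35 (SE) above WT Flt3- cells (limma, adjusted p = 0.0321). It was the 1 marker of the list past the test there, where 0.0201% of all genes were called higher. From WT Flt3+ cells it was 2.80 ± 0.35 (SE) higher (limma, adjusted p = 0.00931), where 0.0351% of all genes were called higher. Of the 9 members, 3 (Fcgr2b, Fcgr3 and Tyrobp) were higher on both null arrays than in WT Flt3- cells, beside 41.3% of all genes. Fcgr1 and Cd33 were lower on both, and for the other 4 the null arrays lay on either side. The part of the progenitor list in the members' levels was not tested. The mast cell and basophil list, a lineage that also uses Fcer1g, summed to 49.1 on null replicate 1 and 54.4 on null replicate 2, against 50.9 in WT Flt3+ and 45.4 in WT Flt3- cells. Fcer1g and this list were both higher on null replicate 2 than on replicate 1. The NK cell list, whose cells use Fcgr3, Fcer1g and Tyrobp, summed to between 33.2 and 34.3 on the 4 arrays, but its single markers were not level. Nkg7 stood at 8.58 and 10.06 on null replicates 1 and 2, against 8.76 in WT Flt3+ and 8.21 in WT Flt3- cells. Klrd1 went the other way, at 3.19 and 2.82 on the null arrays, against 3.93 in WT Flt3+ and 3.39 in WT Flt3- cells.

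**Figure D3:**
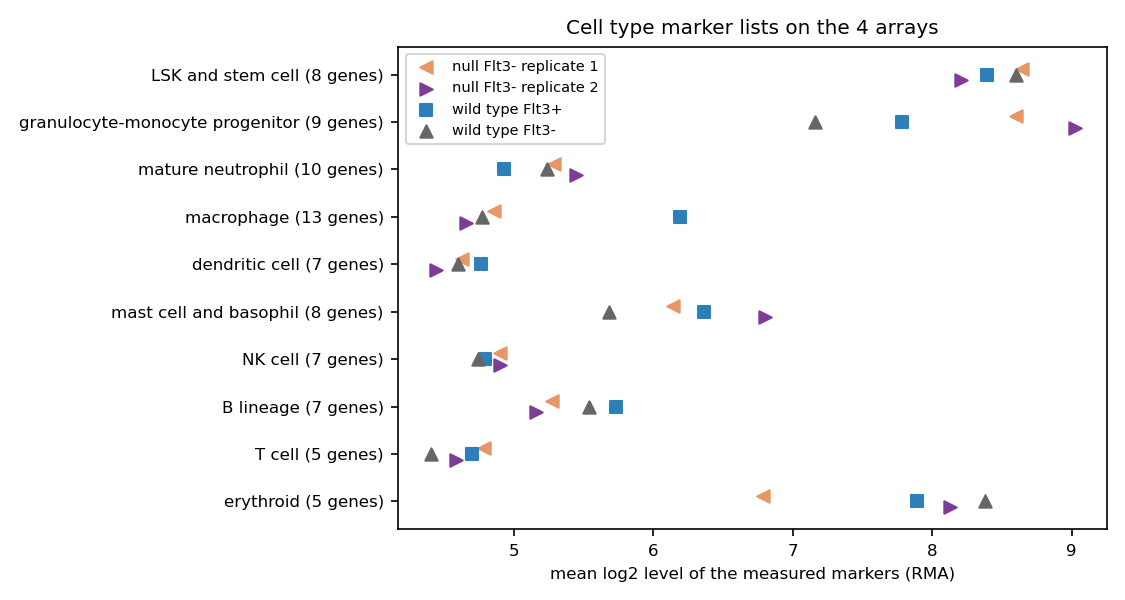
Mean log2 level (horizontal axis, RMA units) of the measured markers of 10 cell type lists (rows, with the number of genes) on each of the 4 arrays. The macrophage row has the WT Flt3+ array alone at 6.19 with the other arrays between 4.65 and 4.85, and in the granulocyte-monocyte progenitor row the null arrays are the highest.

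Of all genes, those whose levels over the 4 arrays lay nearest to Lilr4b and Lilrb4a were sought, as these members had the widest ranges. The same 4 genes outside the family stood among the 5 nearest of each, with distances of 0.80 to 0.94 from Lilr4b and 0.33 to 0.53 from Lilrb4a. They were Cxcl16, a chemokine gene, Il1a, which encodes interleukin-1 alpha, Adgre1, and Clec4a3, a C-type lectin receptor gene. Cxcl16, the nearest to Lilrb4a, had levels of 5.02 and 4.57 on the null arrays, against 7.51 in WT Flt3+ and 4.92 in WT Flt3- cells. The remaining place was taken by Lilrb4a for Lilr4b and by Cd33 for Lilrb4a.

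The other genes of the pathway were read from 6 lists of 147 genes, of which 135 were measured. Against either WT fraction 0 of the 135 passed limma after adjustment over all genes, where 0.0351% of all genes were called higher and 0.281% lower against WT Flt3+ cells. Under other scalings or a robust prior up to 2 were called against WT Flt3- and up to 6 against WT Flt3+ cells. Both highest counts came with equal array medians, where 108 and 272 of all 19938 genes were called. At an unadjusted p under 0.05, 5 pathway genes were higher and 11 lower in null than in WT Flt3+ cells (3.7% and 8.15% of the 135, beside 1.13% and 2.31% of all genes). Against WT Flt3- cells 6 were higher and 2 lower (4.44% and 1.48%, beside 1.1% and 1.3% of all genes). The lists were chosen with earlier results of these data known, and each comparison rests on 1 wild-type array. These shares are therefore a description.

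Among other Fc receptors, 11 of 13 were higher in null than in WT Flt3- cells, beside 65% of all genes. The list's median was 0.22 (0.09 over all genes). Apart from Fcer1a and Ms4a2, the higher genes had mean levels over the 4 arrays from 3.86 (Fcamr) to 5.18 (Fcrlb). Each of them differed more on null replicate 1, the array of highest median, than on replicate 2. The 2 differences were 0.81 and 0.08 for Fcmr and 0.97 and 0.26 for Fcer2a. Fcer1a, which encodes the IgE-binding chain that pairs with the Fcer1g product, had levels of 6.51 and 7.44 on the null arrays, against 5.53 in WT Flt3+ and 4.31 in WT Flt3- cells. Its difference from WT Flt3- cells was 2.66 ± 0.42 (SE; limma, adjusted p = 0.148), the lowest adjusted p of the pathway genes there. Ms4a2, the beta chain of the same IgE receptor, was at 0.90 ± 0.33 (SE; limma, adjusted p = 1). The ligand-binding chain Fcer1a was highest on the null arrays while the shared chain Fcer1g was highest in WT Flt3+ cells. Fcrls, an Fc receptor-like gene of macrophages, was at -1.15 from WT Flt3+ cells (limma, adjusted p = 0.317).

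The list of activating receptors and further signalling chains gave a median of 0.13 against WT Flt3- and -0.11 against WT Flt3+ cells, over 22 genes. It includes Cd79a, Cd79b, Cd247 and Hcst, which encode signalling chains, and Clec7a and Clec1b, whose products carry a tyrosine motif of their own. Trem3 (0.95), Clec4e (0.83) and Trem1 (0.71), myeloid activating receptors, were the farthest above WT Flt3- cells, each with a limma adjusted p of 1. Against WT Flt3+ cells the largest differences were those of Clec7a, the beta-glucan receptor gene (-1.25, limma adjusted p = 0.347), the lectin receptor gene Clec4d (-1.13, adjusted p = 0.604) and Cd300ld (-1.05, adjusted p = 0.618). Of the 25 genes listed by name as other ITIM receptors, 19 were lower and 6 higher in null than in WT Flt3+ cells (43.1% and 56.9% of all genes). Whether each product on this list, such as that of Klrb1c, carries an ITIM was not checked. The list's median was -0.25 (0.05 over all genes), and 13 of its genes had their highest level on the WT Flt3+ array (19.7% of all genes). Cd72, an inhibitory receptor of B cells, was at -1.45 (limma, adjusted p = 0.300), Milr1, an inhibitory receptor of mast cells, at -1.24 (adjusted p = 0.514), Cd244a, a receptor of NK cells, at -1.11 (adjusted p = 1), and Sirpa, which binds CD47 and restrains phagocytosis, at -1.03 (adjusted p = 1). Against WT Flt3- cells the same list had 16 higher and 9 lower (65% and 34.9% of all genes) and a median of 0.23.

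The 36 measured ITAM signalling genes had a median of 0.10 against WT Flt3- and -0.01 against WT Flt3+ cells. Syk, named outside the rule as the kinase that binds the ITAM, stood at 7.69 and 7.32 on null replicates 1 and 2, against 7.51 in WT Flt3+ and 7.49 in WT Flt3- cells. Blnk, a B cell adaptor gene, was at -1.47 ± 0.29 (SE) from WT Flt3+ cells (limma, adjusted p = 0.115). Lat, an adaptor gene of T cells and mast cells, was at 1.27 ± 0.36 (SE) from WT Flt3+ cells (limma, adjusted p = 0.459), and Ncf4, a subunit of the phagocyte oxidase, at 1.28 ± 0.34 (SE) from WT Flt3- cells (limma, adjusted p = 0.812). The 24 ITIM phosphatases and brakes had a median of 0.10 against WT Flt3- and -0.01 against WT Flt3+ cells. Ptpn6, also named outside the rule, encodes the phosphatase SHP-1 and stood at 8.90 and 9.11 on the null arrays, against 9.01 in WT Flt3+ and 8.88 in WT Flt3- cells. Ptpn12, a phosphatase gene, was at 0.65 from WT Flt3+ cells (limma, adjusted p = 1). Inpp5d encodes SHIP-1, the phosphatase used by the Fcgr2b product, and was at -0.64 ± 0.36 (SE) from WT Flt3+ and -0.11 ± 0.36 (SE) from WT Flt3- cells. The lowest adjusted p of the pathway against WT Flt3+ cells was that of Sh2d1b1, a gene of the adaptor EAT-2, at -1.47 ± 0.29 (SE; limma, adjusted p = 0.0965).

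**Figure D4:**
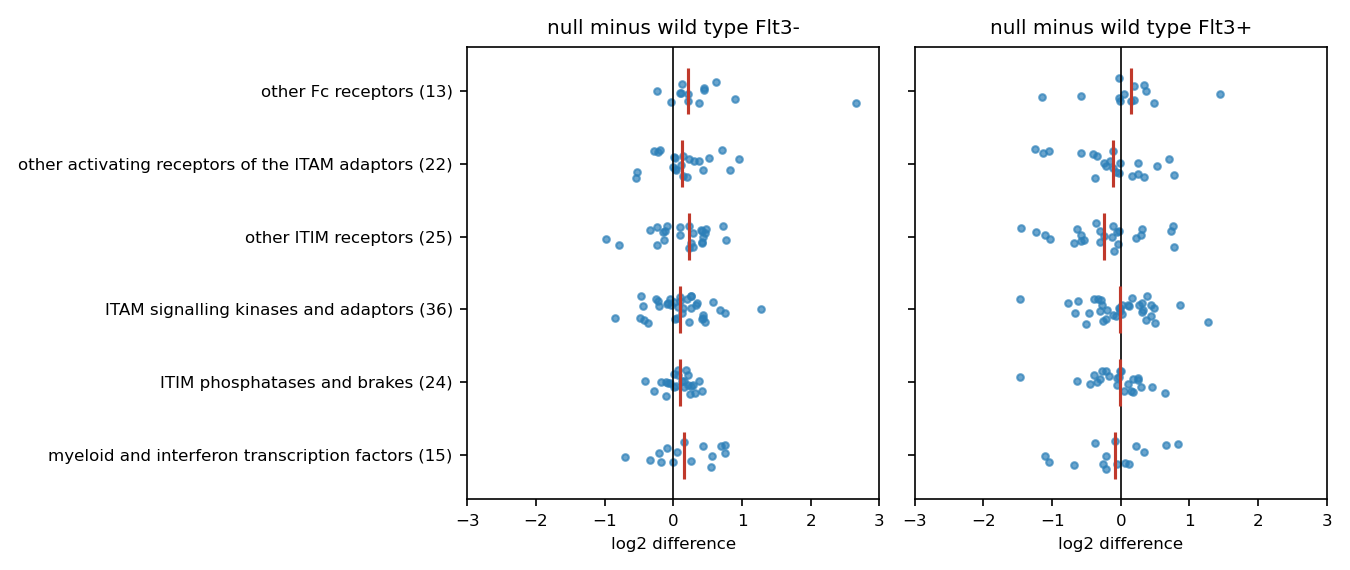
Log2 differences of the measured pathway genes, 1 point a gene, in 6 lists (rows, with the number of genes) for null minus WT Flt3- cells (left) and null minus WT Flt3+ cells (right); red bars are list medians. Medians lie between 0.10 and 0.23 on the left and between -0.25 and 0.15 on the right, and 0 of the 135 genes passed the adjusted test.

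Transcription factors of myeloid and interferon programmes gave a median of 0.16 against WT Flt3- and -0.09 against WT Flt3+ cells, over 15 genes. The largest difference from WT Flt3+ cells was that of Ets2, an ETS factor gene, at -1.10 ± 0.41 (SE; limma, adjusted p = 1). Irf8, a factor of monocyte and dendritic cell development, was at 5.44 and 6.66 on null replicates 1 and 2, against 7.10 in WT Flt3+ and 6.39 in WT Flt3- cells (-1.05 ± 0.48, SE, from WT Flt3+; limma, adjusted p = 1). Like Fcer1g, it was higher on null replicate 2 than on replicate 1, with the WT Flt3- array between them. Cebpa, which directs granulocyte-monocyte fate, was at 7.61 and 7.74 on the null arrays, against 7.74 in WT Flt3+ and 6.92 in WT Flt3- cells. Spi1, named outside the rule, encodes PU.1 and stood at 6.63 and 7.21 on null replicates 1 and 2, against 7.29 in WT Flt3+ and 6.77 in WT Flt3- cells.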

How the data were processed

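The deposited log2 values, 1 for each probe set, came from RMA with affy 1.23 in the hands of the authors, according to the submitters' processing notes. RMA includes background correction and normalization, yet array medians were unequal, so their scaling is not settled. Of 35556 probe sets, 21789 had 1 gene in the platform annotation, 1621 several and 12146 none listed; only the first were used. Where a gene had several, the brightest on average was kept, which left 19938 genes; each member had 1, shared with no other gene. limma 3.58.1 in R 4.3.3 was fitted once to the 4 arrays in 3 groups, with a mean-dependent prior and two-sided tests, with Benjamini-Hochberg adjustment over all genes at 0.05. The null pair supplies the 1 residual degree of freedom and the prior 9.01, so lone wild-type arrays are assumed to vary as the null pair does; the median SE was 0.34. Precision is limited by the number of arrays. The sources used here name no genome build or scan date. Named genes were the members, up to 4 genes with the largest differences per list and comparison, and the 5 nearest profiles to the 2 members of widest range. Members and lists were chosen with earlier results of these data known. Alternatives were 3 other scalings, mean probe sets, a level of at least 6, 2 other priors and leaving out each null array. Among listed genes, 12 of 147 in the pathway lists were not analysed here.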

Additional observations from a re-analysis of the deposited data

How the results depend on the processing

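In all 3 comparisons the members' directions held under quantile normalization, equal array medians and cyclic loess, and all 9 were highest in WT Flt3+ cells under each of these, with mean probe sets, and without either null replicate (alternatives for this count were chosen after seeing the data). With equal array medians Lilr4b stood at only 0.003 from WT Flt3- cells, so its direction there was barely kept. Only 5 members have a mean level of at least 6, and under that filter all 5 were highest in WT Flt3+ cells. The members' median was then -1.24 against WT Flt3+ cells (-0.79 for all 9) and 0.14 against WT Flt3- cells (-0.10 for all 9). Against WT Flt3- cells single null arrays disagreed for Fcgr4, Fcer1g, Lilrb4a and Lilr4b: leaving out 1 null replicate gave a members' median of -0.21 to 0.20 and 0 to 1 members (Fcgr3) at least 2-fold apart, and against WT Flt3+ cells a median of -0.82 to -0.81 and 3 to 4 members. Over all genes, leaving out a null replicate gave 298 to 507 genes 2-fold from WT Flt3- and 444 to 801 from WT Flt3+ cells, beside 126 and 267 on both; with a mean level of at least 6, 150 genes were 2-fold from WT Flt3+ cells and 93 between the wild-type arrays, as fewer genes were counted.

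Against WT Flt3- cells limma called 4 genes, all higher, and 2 after quantile normalization, 108 with equal array medians (30 higher, 78 lower), 5 after cyclic loess (4 higher, 1 lower) and 25 with a robust prior (12 higher, 13 lower). Against WT Flt3+ cells it called 63 (7 higher, 56 lower), and 272 with equal medians, 114 after cyclic loess, 114 with a robust prior and 22 with a mean level of at least 6 (5 higher, 17 lower). Pathway genes called, 0 as reported, were 2 against WT Flt3- with equal medians (Fcer1a higher, Yes1 lower) and 1 with a robust prior (Fcer1a). Against WT Flt3+ they were 2 after quantile normalization, 6 with equal medians, 3 after cyclic loess and 2 with a robust prior, with Blnk and Sh2d1b1 lower in each of these. The cause was not tested, apart from the smaller gene set of the level filter. No paired analysis was possible because each wild-type group has 1 array.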

Other observations

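Fcgr2b, Fcgr4, Fcgr3 and Fcer1g lie in this order on mouse chromosome 1, with 7 other measured genes among them in the RefSeq annotation. All 4 members had their highest level in WT Flt3+ cells, but their list was selected on these same arrays, so no contrast with the neighbours is drawn. Of those 7 neighbours, 1 had its highest level there, beside 19.7% of all genes. Tomm40l, that neighbour, stood at 6.21 and 6.33 on null replicates 1 and 2, against 6.60 in WT Flt3+ and 6.32 in WT Flt3- cells. Sdhc, a mitochondrial complex gene, stood at 8.98 and 9.59 on the null arrays, against 9.24 in WT Flt3+ and 9.11 in WT Flt3- cells. Hcst, which encodes the adaptor DAP10 and lies beside Tyrobp, stood at 7.41 and 7.89 on null replicates 1 and 2, against 7.76 in WT Flt3+ and 7.27 in WT Flt3- cells. These genes were chosen for their position after values were seen, and no test was made.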
